A study of Homo sapiens with 30 samples.

Results

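ERG, an ETS-family transcription factor, is best known in normal tissue for maintaining endothelial cells, and 10 genes that it regulates there were followed here in prostate cells that express ERG as an oncogene. The genes are CDH5, PECAM1, TEK, TIE1, VWF, EGFL7, EMCN, KDR, FLT1 and ROBO4. They were chosen by name as endothelial targets of ERG, with earlier results of these data known though without a measured value in the rule, and all 10 have a row among the 26255 genes of the RNA-seq table.

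ETS factors bind DNA at sites with a GGAA core, often as composite elements with partners such as AP-1 or forkhead factors. In endothelial cells ERG and its relative FLI1 hold open the enhancers of genes for cell junctions, for the angiopoietin and VEGF receptors and for secreted vascular proteins. Prostate epithelium does not normally express ERG, but a fusion of the TMPRSS2 and ERG genes places it under the TMPRSS2 promoter in many prostate tumours. H3K27me3 is the histone mark that Polycomb repressive complex 2 deposits at silenced genes.

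The study asked how Ras/ERK and PI3K/AKT signaling change what ERG does in RWPE1, an immortalized line from normal human prostate epithelium. RNA-seq covered 4 RWPE1 lines made with retroviruses, each from 3 libraries. RWPE1-vector carried empty vectors, RWPE1-ERG carried FLAG-tagged ERG in pQCXIH, RWPE1-mAKT carried myristoylated AKT, a form of the kinase that is always active, and RWPE1-ERG/mAKT carried both. ERG binding was mapped in RWPE1-ERG/mAKT cells and in VCaP, a prostate cancer line with the TMPRSS2/ERG rearrangement. Open chromatin was mapped by ATAC-seq in the RWPE1 lines with ERG, with mAKT and with both. An ATAC-seq sample of the vector line is also labelled, but is not analysed here. H3K27me3 was mapped in the vector line, in the ERG line and in RWPE1-ERG S96E, whose ERG carries a substitution that mimics phosphorylation at serine 96, and the kinase ERK2 in the vector and ERG lines. The lists deposited under the labels of the VCaP input and of ERG in VCaP treated with LY294002 go against those labels and enter none of the comparisons. No RNA-seq values of VCaP are used here.

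Each gene has 1 pooled expression value in each line in FPKM, which scales reads by transcript length and library size, and each ChIP-seq or ATAC-seq experiment is 1 list of peaks. No SD can be given, no difference was tested, and every fold below is a description. A ChIP-seq list stands for pooled ChIP experiments and an ATAC-seq list for 1 library, whose fold is over local background and not over input. Summed FPKM ran from 846058 in RWPE1-vector to 1246086 in RWPE1-ERG cells, with 971508 in RWPE1-mAKT and 959573 in RWPE1-ERG/mAKT cells. The ERG transcript had an FPKM of 0.264 in RWPE1-vector, 358 in RWPE1-ERG, 0.435 in RWPE1-mAKT and 328 in RWPE1-ERG/mAKT cells, so both lines with the construct stand far above the others, as their labels say. All 8 basal prostate epithelial markers, led by KRT5, KRT14 and ITGB4, reached an FPKM of 1 in all 4 lines. The luminal keratins KRT8 and KRT18 did too, and the luminal genes KLK3 and KLK2 were at 0 in every line.

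The ERG sites that the results turn on are shown first. The peaks are on build hg19 (GRCh37), and each sequence holds 101 bases around a peak summit, with GGAA or its complement TTCC in capitals. They are the sites with the lowest p-values near a member in each line, ties included. The TEK site lies in an intron at chr9:27117801-27117901 and overlaps open chromatin in all 3 lines, in RWPE1-mAKT cells only at its edge. The VWF site lies in an intron at chr12:6073376-6073476 and has the lowest p-value in RWPE1-ERG/mAKT cells. The EMCN site at chr4:101740182-101740282, in an intron of a long annotated transcript, has the same p-value as the TEK site but lies outside open chromatin. The VCaP sites at PECAM1, chr17:62405017-62405117, and in a FLT1 intron, chr13:28966732-28966832 share the lowest p-value in that line. VWF, EMCN and FLT1 are read on the minus strand, the strand of the gene, and TEK and PECAM1 on the plus strand.
TEK, RWPE1-ERG/mAKT: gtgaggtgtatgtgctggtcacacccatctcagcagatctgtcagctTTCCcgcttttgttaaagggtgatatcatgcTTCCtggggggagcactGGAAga
VWF, RWPE1-ERG/mAKT: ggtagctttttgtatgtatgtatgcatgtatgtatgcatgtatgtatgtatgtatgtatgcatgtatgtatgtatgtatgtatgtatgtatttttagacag
EMCN, RWPE1-ERG/mAKT: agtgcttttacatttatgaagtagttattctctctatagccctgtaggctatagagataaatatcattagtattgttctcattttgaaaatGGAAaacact
PECAM1, VCaP: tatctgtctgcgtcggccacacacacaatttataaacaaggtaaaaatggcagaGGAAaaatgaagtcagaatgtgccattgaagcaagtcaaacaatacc
FLT1, VCaP: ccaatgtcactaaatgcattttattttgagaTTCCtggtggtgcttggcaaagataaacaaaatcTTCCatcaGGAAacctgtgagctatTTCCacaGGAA

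The 5 sites differ in their ETS cores. The FLT1 site holds 5, the TEK site 3, the EMCN and PECAM1 sites 1 each, and the VWF site holds none. The VWF site is mostly a short tandem repeat. The TEK site also reads CAGGAA once, on the minus strand, and the FLT1 site reads it 3 times.

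Transcript levels of the endothelial genes in RWPE1 cells were low, with 1 exception. EGFL7 alone reached an FPKM of 1 in any line, 1 of 10 genes against 48.3% of all genes, and 3 of 10 (CDH5, EGFL7 and ROBO4) reached 0.1, against 61.0% of all genes. In the lines with ERG at an FPKM of 328 and 358, the other 7 genes were below 0.1, as they were in the lines without it. In these cultures fewer expressing cells and less RNA per cell cannot be told apart.

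The junction and surface proteins came first. CDH5 encodes VE-cadherin, the adhesion molecule of endothelial junctions, and had an FPKM of 0.0111 in RWPE1-vector, 0.0103 in RWPE1-ERG, 0.0035 in RWPE1-mAKT and 0.21 in RWPE1-ERG/mAKT cells. The line with both constructs was the high one, and the other 3 lay at or below 0.0111. PECAM1, an adhesion molecule of endothelial cells, platelets and leukocytes, had values of 0.0158, 0.0148, 0.00474 and 0.0253 in the same order of lines. EMCN, which encodes the sialomucin endomucin, was listed at 0 in all 4 lines.

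The receptor tyrosine kinases were close to 0 throughout. TEK, the receptor of the angiopoietins, had FPKM values of 0.0153 in RWPE1-vector, 0.0267 in RWPE1-ERG, 0.0202 in RWPE1-mAKT and 0.0271 in RWPE1-ERG/mAKT cells, and TIE1, its coreceptor, had 0.00579, 0.00256, 0.00199 and 0. KDR, the main signaling receptor for VEGFA, was listed at 0 in RWPE1-vector and at 0.00483, 0.00373 and 0.00609 in the other 3 lines. FLT1, which binds VEGFA, VEGFB and PGF, had 0.00198, 0.0331, 0.00649 and 0.0128. The highest of these values was 0.0331, for FLT1 in RWPE1-ERG cells, and for none did the study's software find enough alignments for a test in any of the 6 pairs of lines.

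ROBO4, a guidance receptor that stabilizes vessels, had the second highest maximum of the members. Its FPKM was 0.153 in RWPE1-vector, 0.236 in RWPE1-ERG, 0.122 in RWPE1-mAKT and 0.0453 in RWPE1-ERG/mAKT cells. The line with both constructs was the lowest, the reverse of CDH5. VWF, the secreted glycoprotein that tethers platelets, had 0.00198, 0.00611, 0.00948 and 0.057 in the same lines, highest where CDH5 was highest but below 0.1.

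EGFL7, a secreted protein of the vessel wall, had an FPKM of 14.1 in RWPE1-vector, 22.3 in RWPE1-ERG, 13.2 in RWPE1-mAKT and 20.5 in RWPE1-ERG/mAKT cells. Both lines with ERG lay above both lines without it. Only 16.5% of all genes had a higher maximum over the 4 lines, against 56.2% for ROBO4, 56.8% for CDH5 and 78.5% for EMCN. EGFL7 was also the only member with enough alignments in all 6 pairs.

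**Figure D1:**
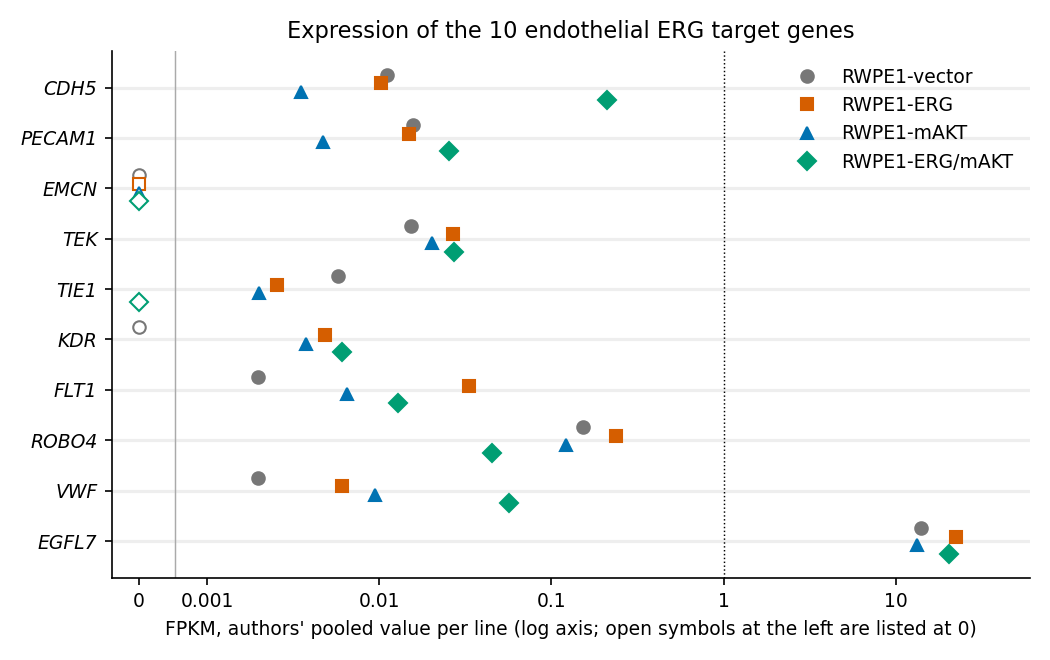
FPKM of the 10 genes in the 4 RWPE1 lines on a log axis, 1 point per gene and line, each the authors' value pooled over 3 libraries, with values listed at 0 drawn as open symbols left of the grey line. EGFL7 sits between 13.2 and 22.3, CDH5 and ROBO4 pass 0.1 in at least 1 line, and EMCN is at 0 in all 4.

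Lines were compared as the log2 ratio of FPKM after adding 0.1 to each value, which understates the change of low genes, for the 16021 genes at 0.1 or above in any line. Of the members, 3 entered. In RWPE1-ERG over RWPE1-vector cells 0 of 3 moved 2-fold, against 7.58% of genes entered, and in RWPE1-mAKT over RWPE1-vector cells 0 of 3 did, against 3.22%. In RWPE1-ERG/mAKT over RWPE1-vector cells 1 of 3 did, namely CDH5, against 7.36%. Against RWPE1-ERG cells 2 of 3 did, with CDH5 higher and ROBO4 lower, against 8.06%, and over RWPE1-mAKT cells 1 of 3 did, again CDH5, against 5.11%. CDH5 entered only through its value in RWPE1-ERG/mAKT cells, so these counts had to include it and are no result about the members. The 3 comparisons with RWPE1-ERG/mAKT cells also share that line.

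For CDH5 the log2 ratio of RWPE1-ERG/mAKT cells was 1.48 over RWPE1-vector, 1.49 over RWPE1-ERG and 1.58 over RWPE1-mAKT cells. The ratios of the FPKM values themselves were 18.9, 20.3 and 60, all against denominators near 0.01 or below. In RWPE1-ERG over RWPE1-vector cells its log2 ratio was -0.01, so the value above 0.1 was listed in the line with both constructs. The study's software found too few alignments of CDH5 for a test in all 6 pairs of lines, and with a pseudocount of 1 FPKM 0 members moved 2-fold in any of these 3 comparisons.

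For ROBO4 the log2 ratio of RWPE1-ERG/mAKT cells was -1.21 over RWPE1-ERG, -0.80 over RWPE1-vector and -0.61 over RWPE1-mAKT cells. ROBO4 too had enough alignments for a test in 0 of 6 pairs, and with a pseudocount of 1 FPKM its difference from RWPE1-ERG cells was not 2-fold. After the totals of all lines were set equal the first of these was -0.98, just short of 2-fold. ROBO4 was 0.41 higher on the log2 scale in RWPE1-ERG than in RWPE1-vector cells, and 0.04 higher with equal totals.

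For EGFL7 the log2 ratio was 0.66 in RWPE1-ERG over RWPE1-vector cells and 0.64 in RWPE1-ERG/mAKT over RWPE1-mAKT cells, against medians of 0.00 and -0.06 over the genes entered. It was -0.12 between the lines with ERG and -0.10 between the lines without it. The summed FPKM differed in the same direction, by 0.56 on the log2 scale in RWPE1-ERG over RWPE1-vector cells, and with equal totals the log2 ratio of EGFL7 was 0.10 there and 0.66 in RWPE1-ERG/mAKT over RWPE1-mAKT cells. The part of the totals in these ratios was not tested. The genes whose 4 values lay nearest to the shape of EGFL7, among 12670 genes at an FPKM of 1 or above in any line, were IRF9, TRAF1 and SNORD97, with root mean square distances of 0.0296, 0.0328 and 0.049 on the centred log2 scale. IRF9, the DNA-binding part of the interferon-stimulated factor, had 8.62, 13.7, 8.24 and 13.2.

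Other genes of the endothelial programme gave a wider view, from lists that were chosen with results of these data known. Of 20 further endothelial surface and secreted genes, 5 (ENG, MMRN2, S1PR1, MCAM and THBD) reached an FPKM of 1 in any line, and 48.3% of all genes did, the share to be read beside the counts of every list that follows. THBD, the thrombin receptor thrombomodulin, had 31.9 in RWPE1-vector, 82.9 in RWPE1-ERG, 22.3 in RWPE1-mAKT and 41.9 in RWPE1-ERG/mAKT cells. MCAM, an adhesion molecule of vessels and melanoma, had 4.18, 13.5, 3.12 and 6.36 and S1PR1, the receptor of sphingosine 1-phosphate, 2.46, 7.26, 2.18 and 1.6. All 3 were highest in RWPE1-ERG cells. Of the 11 genes in this list at 0.1 or above, 5 were at least 2-fold higher and 1 lower in RWPE1-ERG over RWPE1-vector cells, beside the 7.58% of all genes entered that moved either way. The median log2 ratio of the 11 was 0.58, beside 0.00 over all genes entered. One of the 5, ECSCR, was at 0 in the other 3 lines and entered only through its value of 0.208 in RWPE1-ERG cells, so it had to differ. ESAM, also of the 5, had 0.0463, 0.195, 0.0456 and 0.177 and entered only through the lines with ERG. Summed FPKM was itself higher in RWPE1-ERG than in RWPE1-vector cells, by 0.56 on the log2 scale. Its part in these counts and in the median was not tested. ENG, a coreceptor of TGF-beta ligands, had 14.6, 15.4, 13.2 and 12.1. CLEC14A and LYVE1, named after their values were seen, were at 0 in every line.

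Among 13 endothelial transcription factors 5 reached an FPKM of 1, namely ERG itself, FLI1, SOX7, GATA2 and HHEX. FLI1, the closest relative of ERG, had 2.27 in RWPE1-vector, 2.02 in RWPE1-ERG, 2.16 in RWPE1-mAKT and 1.6 in RWPE1-ERG/mAKT cells. SOX7, a SOX factor of early vessels, had 8.81, 6.05, 7.63 and 7.69. GATA2, a factor of blood and vessel precursors, had 1.19, 1.48, 2.26 and 3.68, and of the 9 genes of this list at 0.1 or above it was, beside ERG, the only one to move 2-fold in RWPE1-ERG/mAKT over RWPE1-vector cells.

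Of 14 ligands and coreceptors of the member receptors 8 reached an FPKM of 1 in any line, near the share of all genes, namely VEGFA, VEGFB, VEGFC, PGF, SLIT2, NRP1, NRP2 and UNC5B. VEGFA, the ligand of KDR and FLT1, had 8.86 in RWPE1-vector, 10.3 in RWPE1-ERG, 12.2 in RWPE1-mAKT and 15.2 in RWPE1-ERG/mAKT cells. UNC5B, a netrin receptor that binds ROBO4, had 4.8, 1.84, 6.99 and 8.02 and was lowest in RWPE1-ERG cells. The TEK ligands ANGPT1, ANGPT2 and ANGPT4, named after their values were seen, stayed below 0.1 in all lines.

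Markers of other cell types were read beside these levels. Of 8 leukocyte markers 2 (CD14 and CD68) reached an FPKM of 1, and the defining gene PTPRC was at 0 or at most 0.00391. The summed FPKM of this list ran from 25.6 to 29.5 over the 4 lines. Of 8 fibroblast and pericyte markers 3 (COL1A1, ACTA2 and RGS5) did, the list summed to between 4.81 and 5.68, and PDGFRA and COL3A1 were at 0 in every line.

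**Figure D2:**
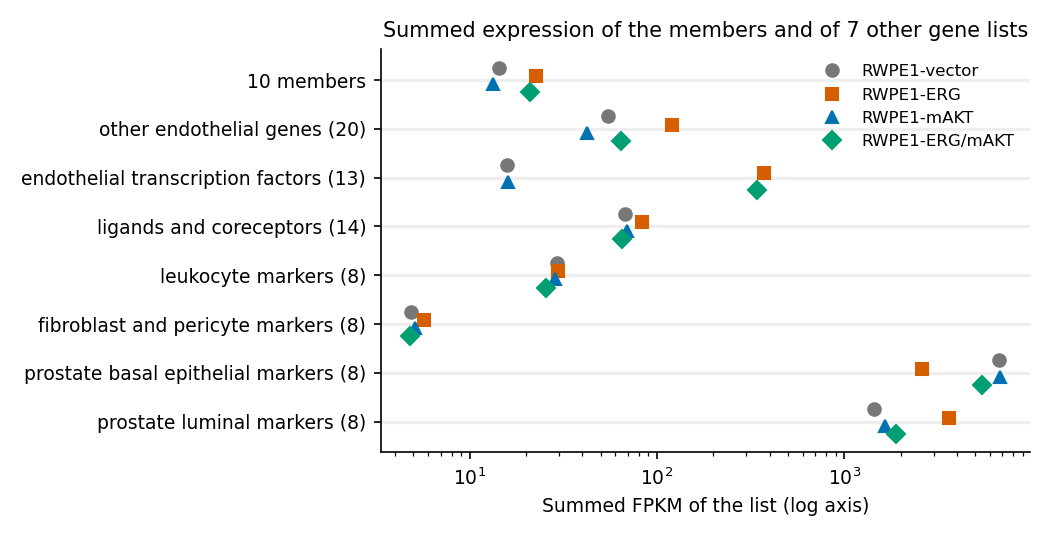
Summed FPKM of the members and of 7 other gene lists in the 4 RWPE1 lines on a log axis, 1 point per list and line, with the number of genes of each list in parentheses. The members sum to between 13.3 and 22.6, nearly all of it EGFL7, and the further endothelial genes are highest in RWPE1-ERG cells at 121.

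Binding by ERG was counted within 20 kb of each gene, measured from the gene span of the annotation, or for PECAM1, which the annotation does not hold, from its locus in the RNA-seq table. The windows ran from 50.3 to 525 kb with a median of 82.6 kb, against a median of 63.2 kb over 25960 genes, so that more peaks can fall near the members by size alone. The 525 kb belong to EMCN, whose annotated transcripts reach over 485 kb against 123 kb in the RNA-seq table. The 50.3 kb belong to PECAM1, whose locus in the RNA-seq table spans 10.3 kb, and whether that is the whole gene was not checked.

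In RWPE1-ERG/mAKT cells 4 of 10 members (PECAM1, TEK, VWF and EMCN) had an ERG peak, against 28.2% of all genes. In VCaP 5 of 10 (PECAM1, TEK, TIE1, KDR and FLT1) did, against 19.5%. PECAM1 and TEK had peaks in both lines, and CDH5, EGFL7 and ROBO4 in neither. None of the 3 members at an FPKM of 0.1 or above therefore had an ERG peak within 20 kb in either line. The nearest ones in RWPE1-ERG/mAKT cells lay 33.9 kb from EGFL7 and 74.4 kb from CDH5, and the nearest outside the window in VCaP lay 55.5 kb from ROBO4. Of the members inside it, only KDR had its nearest peak outside the gene, at 3.4 kb.

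The 10 peaks of RWPE1-ERG/mAKT cells came from a library of 10306483 reads. The one with the lowest p-value was the VWF site, at chr12:6073366-6073493, with a 4.83-fold enrichment over input, a -log10 p of 8.11 and a -log10 q of 2.79, at rank 241 of 9113 peaks. It lay on a tandem repeat, as 0.911% of all peaks did, and outside open chromatin. VWF had 2 other peaks. The exonic one at chr12:6127881-6127989 matched the pseudogene VWFP1 on chromosome 22 at 108 of 109 bases, so its reads could come from either copy. The intronic one at chr12:6066444-6066552 had a fold of 3.53.

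The TEK peak spanned chr9:27117814-27118066 in an intron, 8.63 kb past the start, with a fold of 4.24, a -log10 p of 5.3 and a -log10 q of 0.686. It overlapped open chromatin in all 3 lines, with ATAC-seq folds of 9.78 with ERG, 5.36 with mAKT and 6.07 with both. In RWPE1-mAKT cells the ATAC-seq peak began past the summit of the ERG peak. PECAM1 had a peak at chr17:62404116-62404372 with a fold of 2.91 and a -log10 q of 0.0206. It was likewise open, at 10.9, 5.31 and 6.51 in the same order. PECAM1 had 2 more peaks outside open chromatin, each with a fold of 3.53 and a -log10 q of 0.155. The TEK peak and the first PECAM1 peak were the only 2 of 10 ERG peaks in open chromatin, against 18.5% of all 9113 peaks in RWPE1-ERG/mAKT cells. Accessibility at both sites was listed in RWPE1-mAKT cells too, which carry no ERG construct.

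EMCN had 3 peaks, of which 2 lay upstream, at -301 and -325 kb from the start used, in the long annotated transcript and outside the gene's locus in the RNA-seq table. The third, at chr4:101325617-101325763, lay in an intron 113 kb past the start with a fold of 3.53. No peak near EMCN overlapped open chromatin.

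In VCaP each of the 5 members had 1 peak. The PECAM1 peak, chr17:62405015-62405372, and the FLT1 peak, chr13:28966681-28966843, had the same scores, a fold of 4.48, a -log10 p of 6.14 and a -log10 q of 2.01. The TEK peak lay in an intron 52 kb past the start with a fold of 3.48, and the TIE1 peak in an exon 19.3 kb past the start with a fold of 3.59. The KDR peak, at chr4:55995160-55995331, lay upstream, at -3.49 kb from the start, with a fold of 3.59. The TEK, TIE1 and KDR peaks each had a -log10 q of 0.667. None of the VCaP peaks near members overlapped a peak of RWPE1-ERG/mAKT cells, and over the whole lists 1.25% of the RWPE1-ERG/mAKT peaks overlapped one of VCaP. In PECAM1 the VCaP peak lay less than 1 kb from 1 of the 3 peaks of RWPE1-ERG/mAKT cells, and in TEK the peaks of the lines lay 8.63 and 52 kb past the start.

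Sequence at the summits resembled that of the lists as a whole. GGAA on either strand was within 50 bp of the summit in 7 of 10 peaks of RWPE1-ERG/mAKT cells, against 67.1% of the list, and in 3 of 5 peaks of VCaP, against 70.5%. CAGGAA was in 2 of 10 (16.1% of the list) and 1 of 5 (16.2%), and the AP-1 sequence TGANTCA, where N is any base, in 1 of 10 (7.3%) and 0 of 5 (2.48%). The longer ETS sequence GGAAGTG was in none of the 15 peaks, against at most 3.8% of either list. The forkhead sequence TGTTTAC was in none, against at most 2.77%, and neither was CCGGAA, against at most 4.39%. The ETS sequences all contain GGAA, so their counts overlap.

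**Figure D3:**
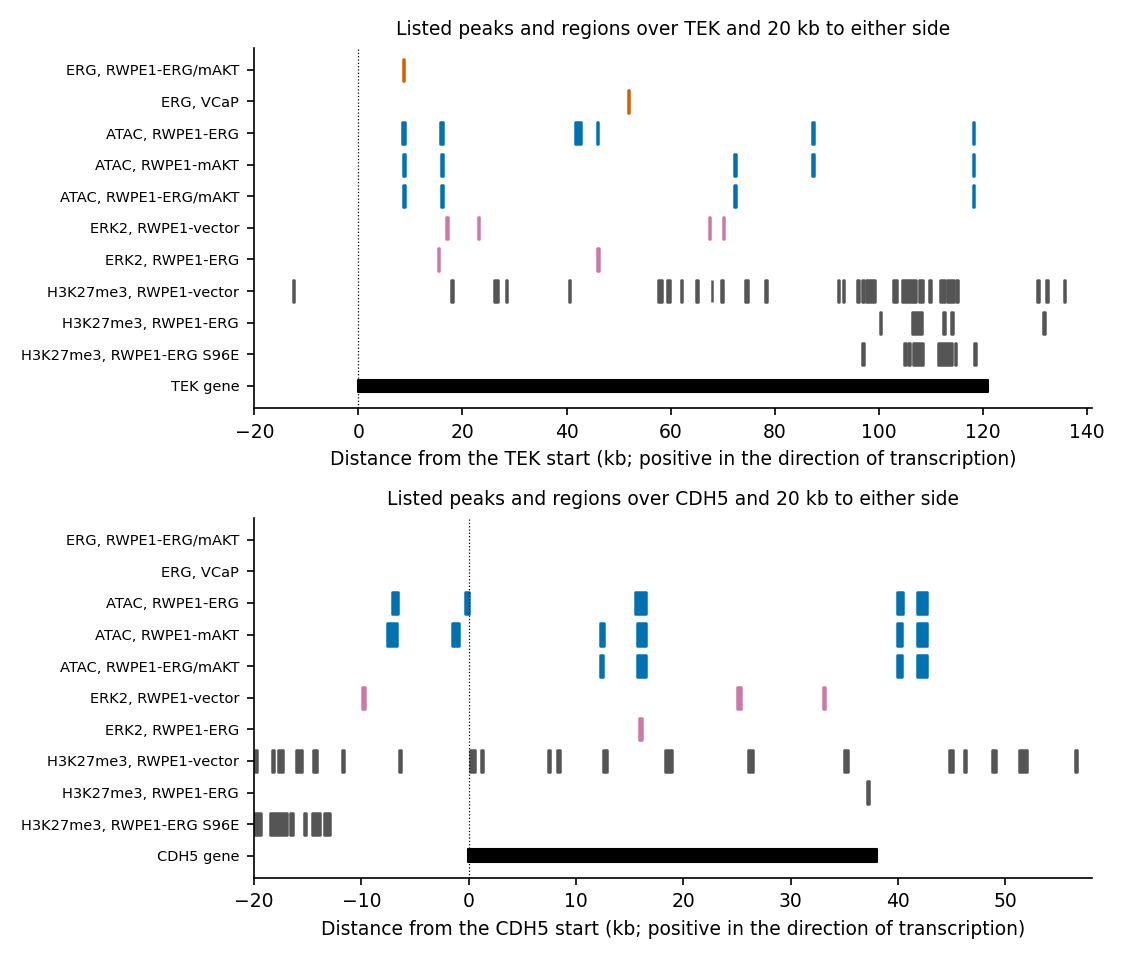
Peaks and regions around TEK and CDH5 in each list, with distance from the gene start in kb on the x axis and 1 row per list. The TEK peak of RWPE1-ERG/mAKT cells, with its summit at 8.63 kb, overlaps ATAC-seq peaks of all 3 lines. CDH5 has open chromatin at 16 kb but no ERG peak in either line.

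Open chromatin was listed at the starts of a smaller share of the members than of all genes, which was not tested. Within 1 kb of the start an ATAC-seq peak was present at 3 of 9 members in RWPE1-ERG cells (CDH5, KDR and ROBO4), against 55.4% of 21887 genes. In RWPE1-mAKT cells it was present at 4 of 9, which added FLT1, against 54.2%, and in RWPE1-ERG/mAKT cells at 1 of 9, ROBO4, against 50.1%. PECAM1 has no start in the annotation and is not counted. Most of the 9 members had an FPKM below 0.1. Of all genes below 0.1 in the same line, 19.4% had an ATAC-seq peak at the start in RWPE1-ERG cells. The share was 17.5% in RWPE1-mAKT and 12.7% in RWPE1-ERG/mAKT cells. The RWPE1-ERG/mAKT list is the shortest, with 42081 peaks against 63354 and 57999, and its depth is not given in the sources used here.

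CDH5 was listed with a peak over its start in RWPE1-ERG cells, at chr16:66400264-66400657 with a fold of 5.71, where its FPKM was 0.0103. In RWPE1-ERG/mAKT cells, where its FPKM was 0.21, no peak was listed within 1 kb of that start. A peak did lie within 1 kb of another of its 8 annotated starts in that line. An intronic CDH5 site 16 kb past the start was open in all 3 lines, at 6.43 with ERG, 4.77 with mAKT and 6.58 with both. The KDR start was open in RWPE1-ERG and RWPE1-mAKT cells, with folds of 5.14 and 3.6. The FLT1 start was open in RWPE1-mAKT cells at 3.19. A site at -0.843 kb from the ROBO4 start was open in all 3 lines, with folds of 7.95, 4.88 and 5.08.

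EGFL7 was expressed without a listed open site at its start. It was the only member with an FPKM above 10, and no ATAC-seq peak lay within 1 kb of any of its 7 annotated starts, or within 5 kb of the start used, in any of the 3 lists. Of the genes at an FPKM of 10 or above in the same line, a peak lay within 1 kb of at least 1 annotated start in 96.2% in RWPE1-ERG, 96.3% in RWPE1-mAKT and 94% in RWPE1-ERG/mAKT cells. Peaks near EGFL7 lay at -14.2 kb, with folds of 6.57, 5.24 and 4.73 in the 3 lines, and in an intron 12.8 kb past the start, with folds of 2.21 and 2.29 in RWPE1-ERG and RWPE1-mAKT cells. The other 3 sites of its window lay in the neighbouring gene AGPAT2. Those 17 and 28.4 kb past the EGFL7 start were listed in all 3 lines, at 2.38 to 3.78-fold, and the one at 20.9 kb in RWPE1-ERG cells alone, at 8.14-fold.

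Over all windows the members had 51 open sites, of which 18 were listed in all 3 lines, 12 in 2 lines and 21 in 1. RWPE1-ERG cells had 36 of them, RWPE1-mAKT cells 40 and RWPE1-ERG/mAKT cells 23, from lists of 63354, 57999 and 42081 peaks. How the sites of all genes divide over the lines was not counted, so these counts are no result about the members. VWF had the most, 12, and PECAM1, TIE1 and KDR the fewest, with 2 each. TEK had 7 sites, 3 of them in all 3 lines, and one of those 3 lay in an intron 16 kb past the start, with folds of 11.1, 8 and 6.64.

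The promoters of KDR, FLT1 and ROBO4 are shown because ATAC-seq peaks and H3K27me3 regions both lay within 1 kb of their starts, each in at least 1 line. The same held for CDH5, which has no promoter among those used here. RefSeq holds a promoter of 7 of the 10 members in GRCh38.p14, another build than that of the peaks, and the 250 bases before each start are given on the gene's strand, with GGAA or TTCC in capitals. They lie at chr4:55125596-55125845 for KDR, chr13:28495129-28495378 for FLT1 and chr11:124897866-124898115 for ROBO4.
KDR promoter: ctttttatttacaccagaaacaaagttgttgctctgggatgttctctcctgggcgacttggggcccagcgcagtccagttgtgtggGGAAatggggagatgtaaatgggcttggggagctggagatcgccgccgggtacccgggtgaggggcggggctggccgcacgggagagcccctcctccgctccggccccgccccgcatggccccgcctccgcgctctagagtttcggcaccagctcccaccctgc
FLT1 promoter: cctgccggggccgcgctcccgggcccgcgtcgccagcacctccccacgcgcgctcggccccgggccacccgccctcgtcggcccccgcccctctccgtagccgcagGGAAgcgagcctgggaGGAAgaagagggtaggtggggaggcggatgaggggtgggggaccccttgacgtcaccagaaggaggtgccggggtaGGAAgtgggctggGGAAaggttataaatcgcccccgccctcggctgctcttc
ROBO4 promoter: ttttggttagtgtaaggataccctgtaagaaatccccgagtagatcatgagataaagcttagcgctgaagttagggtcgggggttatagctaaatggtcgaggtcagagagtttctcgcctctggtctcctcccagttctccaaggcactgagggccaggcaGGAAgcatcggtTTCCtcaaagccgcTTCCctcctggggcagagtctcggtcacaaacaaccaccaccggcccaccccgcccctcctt

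The KDR promoter had 1 GGAA, the FLT1 promoter 4 and the ROBO4 promoter 3 in these 250 bases. Over the promoters from 250 bases before to 50 after the start, all 9 promoters of the 7 matched members held GGAA, as 95.5% of 35116 promoters did. CAGGAA was in 5 of 9 (28.4% of all), from 4 of the 7 members. GGAAGTG was in 3 of 9 (11.2%), from 2 of the 7 members, FLT1 and TEK. The TEK promoters overlap and share a GGAAGTG site. TGTTTAC was in 1 of 9 (3.42%), at TEK. CCGGAA (17.2% of all) and TGANTCA (7.71%) were in none.

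H3K27me3 regions were called with a weak p-value limit of 0.1, and their median length was 380 bp in RWPE1-vector, 419 bp in RWPE1-ERG and 471 bp in RWPE1-ERG S96E cells. Within 1 kb of the start a region was present at 6 of 9 members in RWPE1-vector cells (CDH5, EGFL7, EMCN, KDR, FLT1 and ROBO4), against 27.5% of genes. In RWPE1-ERG cells it was present at 3 of 9 (EGFL7, KDR and FLT1), against 18.0%, and in RWPE1-ERG S96E cells at the same 3 of 9, against 25.6%. In RWPE1-vector cells the regions at CDH5, EMCN and ROBO4 had folds of 1.66 to 2.05, beside a list median of 1.84, and a -log10 q of 0. The lists held 492265 regions in RWPE1-vector, 228233 in RWPE1-ERG and 252784 in RWPE1-ERG S96E cells. The libraries held 19444504, 16513053 and 26454542 reads, and 29, 39 and 3413 regions passed a q-value of 0.01. Reads were 84 bp long in RWPE1-vector and RWPE1-ERG and 74 bp long in RWPE1-ERG S96E cells. The part of depth and of read length in the results on this mark was not tested.

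The regions of highest enrichment lay at KDR, FLT1 and ROBO4 in RWPE1-ERG S96E cells. At FLT1 a region of 13.5 kb, chr13:29059953-29073454, covered the start with a fold of 5.84 and a -log10 q of 8.97. At KDR a region of 4.62 kb, chr4:55988762-55993382, covered the start with a fold of 4.54 and a -log10 q of 5.18. Near ROBO4 a region of 17 kb downstream of the gene, on the side of its neighbour ROBO3 at chr11:124728814-124745835, had a fold of 6.56 and a -log10 q of 11.1. In each of these 3 windows the highest fold of either other line was between 2.37 and 3.12, and no -log10 q passed 0.603.

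The other members had lower folds. VWF had a region of 12.8 kb in RWPE1-ERG S96E cells, chr12:6051110-6063901, over the end of the gene, with a fold of 4.08. At the EGFL7 start, the member with the highest FPKM, a region was listed in all 3 lines. The folds were 1.96, 2.23 and 2.44, beside medians of 1.84, 1.94 and 2.01 over the whole lists. The -log10 q was 0, 0.0125 and 0.846, so none of these regions passed a q-value of 0.01. CDH5, PECAM1, TEK and EMCN had no region above 2.58-fold in any line.

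The share of a window under regions was highest at FLT1, ROBO4 and VWF in RWPE1-ERG S96E cells. FLT1 was covered at 19.2% in RWPE1-vector, 17.2% in RWPE1-ERG and 28.6% in RWPE1-ERG S96E cells, ROBO4 at 25.6%, 20.2% and 28.3%, and VWF at 20.3%, 14% and 23.7%. CDH5 was covered at 9.01%, 0.271% and 5.18%, and PECAM1 at 4.42%, 0.66% and 0.992%. The median over the members was 15% in RWPE1-vector, 8.25% in RWPE1-ERG and 14.8% in RWPE1-ERG S96E cells, beside 5.33%, 1.47% and 2.98% over all genes. The RWPE1-vector list is the longest. With 228233 regions from each list the median over the members was 8.15% in RWPE1-vector cells, near the value of RWPE1-ERG cells.

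The order of RWPE1-vector and RWPE1-ERG cells depended on the length of the lists. For RWPE1-ERG S96E and RWPE1-ERG cells the lists were close in length, at 252784 and 228233 regions. Equal numbers could therefore change little there, and cannot show whether length had a part. Taking equal numbers of regions does not make depth or read length equal. Coverage was higher in RWPE1-vector than in RWPE1-ERG cells at 10 of 10 members with all regions (89.6% of genes) and at 6 of 10 with equal numbers (55.5%). It was higher in RWPE1-ERG S96E than in RWPE1-ERG cells at 9 of 10 members under either setting, against 78.9% and 76.2% of genes. EMCN was the exception, at 0.827% and 3.07% with all regions.

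**Figure D4:**
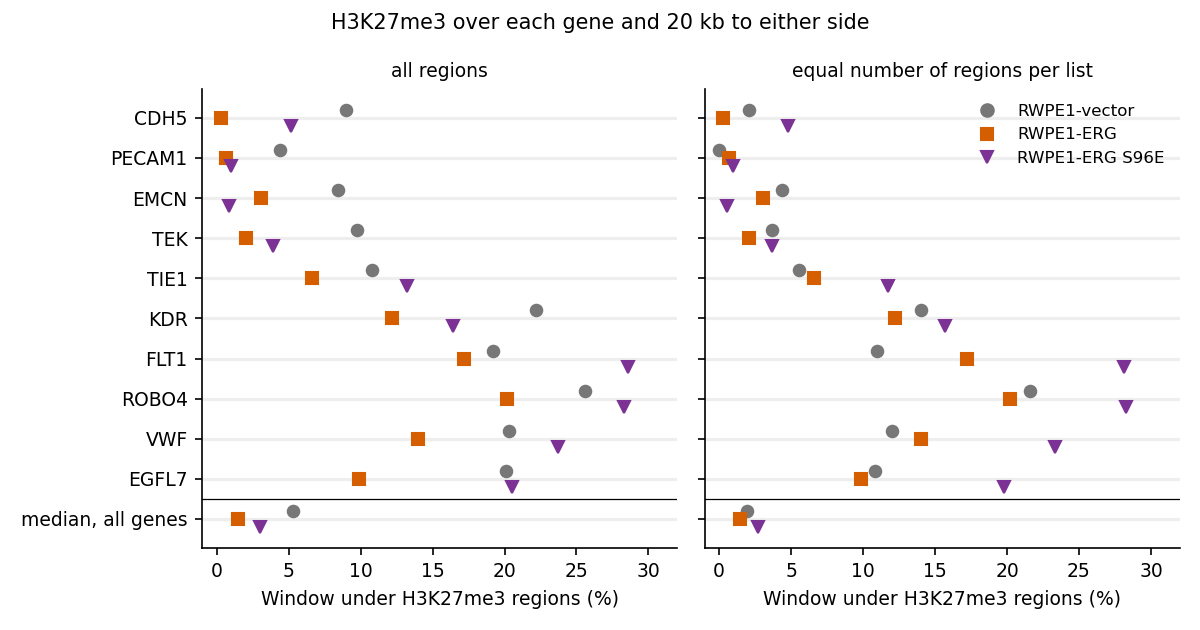
Percent of each member's window, the gene span with 20 kb on either side, that H3K27me3 regions cover in 3 RWPE1 lines, with all regions in the left panel and 228233 regions from each list in the right, and the bottom row gives the median of all genes. FLT1, ROBO4 and VWF are highest in RWPE1-ERG S96E cells. RWPE1-vector lies above RWPE1-ERG at 10 of 10 members on the left and at 6 of 10 on the right.

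**Figure D5:**
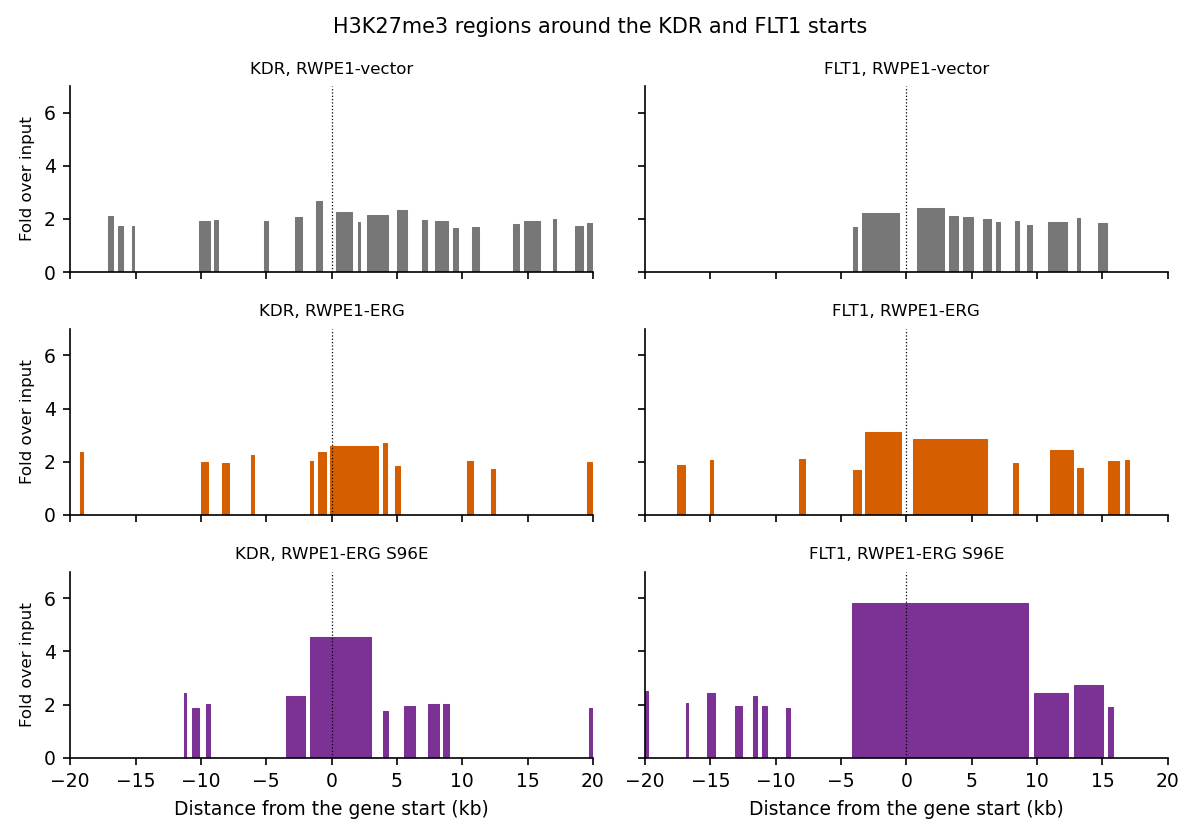
H3K27me3 regions around the KDR and FLT1 starts in 3 RWPE1 lines, 1 bar per region, with distance from the start in kb on the x axis and fold enrichment on the y axis. Regions in RWPE1-ERG S96E cells reach 4.54 at KDR and 5.84 at FLT1, above the highest value in either other line.

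ERK2 was found near 7 of 10 members in RWPE1-vector cells, with 21 peaks, against 66.6% of all genes, and near 5 of 10 in RWPE1-ERG cells, with 8 peaks, against 22.8%. The RWPE1-vector list holds 41276 peaks and the RWPE1-ERG list 5721. The scores near the members were low, with a -log10 q of at most 0.899 in RWPE1-vector cells and of 0 for all 8 peaks in RWPE1-ERG cells. In RWPE1-ERG cells ERK2 peaks overlapped the open CDH5 site at 16 kb, with a fold of 3.31, the open PECAM1 site, with 2.92, and an open TEK site 45.9 kb past the start, with 3.04. At the PECAM1 site the ERK2 peak ended less than 0.1 kb from the ERG peak of RWPE1-ERG/mAKT cells. No ERK2 peak overlapped an ERG peak near a member in either line. Few did over the whole lists. Of all ERG peaks in RWPE1-ERG/mAKT cells, 3.56% overlapped an ERK2 peak of RWPE1-vector and 2.91% one of RWPE1-ERG cells. For VCaP the shares were 2.45% and 2.15%.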

How the data were processed

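Of the series' 30 samples, the RNA-seq table (12 libraries, 3 for each of 4 lines) and 10 peak lists were used, grouped by their labels. The authors aligned RNA-seq reads with TopHat2 and deposited Cuffdiff values, 1 FPKM per gene and line pooled over libraries. The fold changes, p-values, q-values and calls in the same table are the authors' own comparisons and were not used. ChIP-seq and ATAC-seq reads were aligned by the authors to hg19 with Bowtie2 and duplicates were removed. The deposited MACS lists (versions 2.1.2 and 2.2.7.1 per the file headers, not given for 3 of them) hold each peak's pileup signal, fold enrichment (a ratio to background), -log10 p and -log10 q, called by the authors at a p-value of 0.001 for ERG and with a weak limit of 0.1 for the H3K27me3 regions. Depth was read from the headers and is not given in the sources used here for VCaP and for ATAC-seq of RWPE1-ERG and RWPE1-ERG/mAKT.

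The members and gene lists were chosen with earlier results of these data known. All 10 members were named, with the genes of the other lists that reached an FPKM of 1 in any line. The prostate basal and luminal lists were named only in part. Genes were placed by the GENCODE annotation of hg19, or by the table's locus for 4368 genes. A gene had a peak when 1 base of it lay within 20 kb of the gene span, or within 1 kb of the start for ATAC-seq and H3K27me3. Log2 ratios used a pseudocount of 0.1 FPKM and genes at 0.1 or above in any line. Motifs were read within 50 bp of the summit. Peaks off chromosomes 1 to 22, X and Y were left out. The counting steps were tested on simulated data. Python 3.11.15, pandas 2.3.3, numpy 2.4.6 and pysam 0.24.0 were used. No p-value was computed, since each value has no replicate. Some markers of the luminal list are not reported here.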

Additional observations from a re-analysis of the deposited data

Results flagged for a closer look

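In 2 lists outside the comparisons peaks lay near the members. The list under the label of the VCaP input, whose header names an ERG ChIP of cells treated with LY294002, holds 13295 peaks, and 5 of 10 members (PECAM1, TEK, VWF, EMCN and FLT1) had one within 20 kb, against 32.8% of all genes. It holds 10 peaks near the members. Its FLT1 peak, chr13:28966527-28966749, with a fold of 5.25, and its PECAM1 peak, chr17:62405092-62405340, with a fold of 3.15, overlapped the VCaP ERG peaks of those genes.

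The list under the label of ERG ChIP in VCaP cells treated with LY294002, a PI3K inhibitor, has the format and widths of the ATAC-seq lists and 55889 peaks. Near the members it holds 36 peaks, and 10 of 10 members had one within 20 kb, against 86.7% of all genes. Its peaks at TEK, chr9:27117806-27118152, with a fold of 5.83, and at PECAM1, chr17:62403818-62404336, with a fold of 9.11, overlapped the open ERG sites of RWPE1-ERG/mAKT cells. Which cells either list came from cannot be told from the sources used here, and no group was assigned.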

How the results depend on the processing

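No paired analysis was possible because each line has 1 pooled value or 1 list, which also means that no replicate could be left out. Of 83 alternatives to 20 results, 51 left the count or share near its value and 32 moved it. Scaling the lines to equal totals was chosen after seeing the data.

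An FPKM limit of 0.1 gave 3 expressed members. With a pseudocount of 1, or with a floor of 1, 0 members moved 2-fold in RWPE1-ERG/mAKT cells against any of the 3 other lines. A pseudocount of 0.01 gave 2 against RWPE1-vector and 2 against RWPE1-mAKT cells. A limit of 1.5-fold gave 1 in RWPE1-ERG over RWPE1-vector cells, and in RWPE1-ERG/mAKT cells 2 over RWPE1-vector and 3 over RWPE1-mAKT cells. Equal totals left 1 over RWPE1-ERG cells, CDH5.

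Within 20 kb of the start alone, 1 member had an ERG peak in RWPE1-ERG/mAKT cells and 2 in VCaP, and with a q-value of at most 0.01 also 1 and 2. Then 0 ERG peaks near members lay in open chromatin. Within 25 bp of the summit 3 of 10 peaks held GGAA in RWPE1-ERG/mAKT cells and 3 of 5 in VCaP. A shorter window can only lower the count in any list, and the share of all peaks within 25 bp was not counted. With 33000 ATAC-seq peaks 1 member start was open in RWPE1-ERG and 1 in RWPE1-mAKT cells. In RWPE1-ERG/mAKT cells 0 were open within 500 bp, and 2 at any annotated start, which added CDH5.

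With a q-value of at most 0.01, 0 starts had an H3K27me3 region in RWPE1-vector, 0 in RWPE1-ERG and 2 in RWPE1-ERG S96E cells. Within 5 kb 5 did in RWPE1-ERG cells. Pooled over the windows, coverage was 13.7% in RWPE1-vector, 7.99% in RWPE1-ERG and 12% in RWPE1-ERG S96E cells. With equal numbers of regions it was 7.59% in RWPE1-vector and 11.6% in RWPE1-ERG S96E cells, so RWPE1-vector then lay below RWPE1-ERG. With regions of at least 2-fold it was 4.51%, 5.15% and 9.42%, and over the gene span alone 14% in RWPE1-vector cells. Why these values moved was not tested beyond the construction of each setting.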
